A study of Mus musculus with 14 samples.

Results

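The genes described are those of MHC class II antigen presentation in mouse epididymal fat. A listed member was measured where a row of the array table carried its symbol and no other, which held for 8 of the 10 listed genes, among 19937 genes in all. These are H2-Aa, H2-Ab1, H2-Eb1, Cd74, H2-DMa, H2-Oa, H2-Ob and Ciita, each with 1 probe set. H2-DMb1 and H2-DMb2 share 1 row with several symbols, so no value is given for either.

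The study profiled RNA of the whole epididymal fat pad from male mice in a 2 by 2 design of genotype and diet, on 14 whole-transcript arrays. Wild type (WT) mice were C57BL6/J, and the apolipoprotein E mice, which the labels call EKO, were on C57BL6/J as well. The description of the EKO allele is not given in the sources used here. From 8 weeks of age, mice received a normal diet (ND) or a Western diet (labelled HFD and described as 42% anhydrous milk fat) over 24 weeks. There were 3 arrays of WT mice on ND, 3 of WT mice on HFD, 4 of EKO mice on ND and 4 of EKO mice on HFD, and the labels call the replicates biological without saying whether an array held 1 animal. Values are log2 intensities after RMA, which corrects background, scales the arrays to each other and merges a set's probes into 1 value.

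MHC class II molecules present peptides from endosomes to CD4 T cells. They are pairs of an alpha and a beta chain, such as H2-Aa with H2-Ab1, made mainly by dendritic cells, macrophages and B cells. The invariant chain, Cd74, blocks the peptide groove and escorts new molecules to the endosome, where cathepsins trim it away. There H2-DM, built from H2-DMa and an H2-DMb chain, exchanges the last invariant chain fragment for peptide, and H2-DO (H2-Oa with H2-Ob) restrains it. Transcription of the class II genes depends on the co-activator CIITA, encoded by Ciita, which is recruited by factors bound to the X and Y boxes of their promoters and is itself induced by interferon gamma. Macrophages gather in the fat of obese mice, and adipocytes have also been described to carry class II molecules.

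The genotype labels were checked with Apoe, whose log2 value lay between 13.13 and 13.65 in the 6 WT arrays and between 9.46 and 10.26 in the 8 EKO arrays. Adipocyte markers were bright, with a list mean of 12.90 to 13.17 over the arrays. The mean of 1204 olfactory and vomeronasal receptor rows, taken as array background, was 6.29 to 6.56 in 9 arrays and 6.75 to 6.84 in the other 5, which come from all 4 groups (WT ND 1, WT HFD 1, EKO ND 2, EKO HFD 1 and EKO HFD 3). Of 1190 receptor genes, 0.0% had a mean at or above that of H2-Aa, H2-Ab1, H2-Eb1 or Cd74, 0.1% that of H2-DMa, 1.3% that of Ciita and 4.0% that of H2-Ob. The share was 26.1% for H2-Oa, so its values lie within the range of receptor rows and limit what can be read from it.

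The promoter segments that carry the X and Y boxes are shown because CIITA acts on class II genes through factors bound there. They were taken from RefSeq (GRCm38.p6), searching the 250 bases before each gene start on both strands for the X box consensus of class II genes with up to 2 mismatches and for the Y box ATTGG, which do not overlap. Capitals mark the X box match, where there is one, and the Y box, and each run reads 5′ to 3′ on the gene's strand. Promoters were held for 7 of the 10 listed genes and 5 of the 8 measured ones.
H2-Eb1: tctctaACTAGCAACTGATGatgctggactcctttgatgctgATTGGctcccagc
H2-Ob: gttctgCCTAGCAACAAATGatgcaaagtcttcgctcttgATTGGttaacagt
H2-DMb1: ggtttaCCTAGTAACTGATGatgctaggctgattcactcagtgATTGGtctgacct
H2-DMb2: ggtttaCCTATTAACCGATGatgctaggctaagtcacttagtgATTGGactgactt
H2-Aa: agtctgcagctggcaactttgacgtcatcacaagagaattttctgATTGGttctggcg
H2-Oa: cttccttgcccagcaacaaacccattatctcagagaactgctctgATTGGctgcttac

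These segments lie at chr17:34305766-34305820 (H2-Eb1), chr17:34238808-34238860 (H2-Ob), chr17:34153087-34153142 (H2-DMb1), chr17:34145116-34145171 (H2-DMb2), chr17:34287859-34287916 (H2-Aa, minus strand) and chr17:34092291-34092348 (H2-Oa). An X box match followed by a Y box 10 to 40 bases on, on the same strand, was found in H2-Eb1, H2-Ob, H2-DMb1 and H2-DMb2, with 0 mismatches in H2-DMb1 and 1 in each of the others. The bases between both boxes numbered 20 in H2-Ob, 22 in H2-Eb1 and 23 in H2-DMb1 and H2-DMb2. In H2-Aa and H2-Oa the Y box was found without an X box match at that stringency. H2-DMa has 2 listed starts, of which 1 had neither box and the other a Y box alone, 198 bases before the start. Of 32851 promoters of the same length, 6.97% held the X box match, 33.8% the Y box, and 0.25% the pair in this arrangement. These letters describe the windows only, and their part in the measurements was not tested.

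In WT fat the Western diet went with higher class II expression. The beta chains H2-Ab1 and H2-Eb1, the invariant chain Cd74 and the transactivator Ciita rose 1.41-fold to 1.82-fold. The alpha chain H2-Aa and the exchange factor subunit H2-DMa were higher by similar amounts but did not pass the test, and the H2-DO chains H2-Oa and H2-Ob were closest to 0. Thus 4 of the 8 measured members rose, against 3.19% of all 19937 genes that rose in this comparison (limma, Benjamini-Hochberg adjusted p under 0.05 over all genes, two-sided). The median log2 fold change of the members was 0.66, and that of all genes was -0.02. In 7 of the 8 members every WT HFD array was above every WT ND array, an arrangement seen in 8.77% of all genes. Because the tissue was profiled whole, more cells of a type and more RNA per cell cannot be told apart here or in any comparison that follows.

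Among the genes for classical class II chains, H2-Ab1 gave log2 values of 11.43, 11.53 and 11.65 in the WT ND arrays. In the WT HFD arrays it was at 12.37, 12.41 and 12.42. The 3 WT HFD arrays lay within 0.05 of each other and well above all WT ND arrays. H2-Ab1 rose by 0.87 ± 0.24 (log2 fold change ± SE, n = 3 and 3), or 1.82-fold, with a limma adjusted p of 0.0465. H2-Eb1, the other classical beta chain gene measured, was at 11.07, 11.07 and 11.21 on ND and at 11.76, 11.79 and 11.85 on HFD. Again the groups did not overlap, and each lay inside a narrow band. H2-Eb1 rose by 0.68 ± 0.17 (limma adjusted p = 0.0333). H2-Aa, the alpha chain that pairs with H2-Ab1, was at 11.94, 11.66 and 11.78 on ND and at 12.65, 12.19 and 12.47 on HFD. The groups did not overlap, yet the WT HFD arrays of H2-Aa spread over 0.46, and its log2 fold change of 0.64 ± 0.20 had a limma adjusted p of 0.077.

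Cd74 log2 values were 12.17, 11.70 and 12.04 in WT ND and 12.75, 12.63 and 12.85 in WT HFD. All WT HFD arrays of Cd74 were above all WT ND arrays, of which WT ND 2 was the lowest. Cd74 rose by 0.77 ± 0.19, or 1.71-fold (limma adjusted p = 0.029). Ciita had a tight WT ND group, at 8.37, 8.44 and 8.45, and its WT HFD arrays were at 8.80, 9.03 and 8.91. Ciita rose by 0.49 ± 0.11, or 1.41-fold, with the smallest limma adjusted p of the members, 0.0206.

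For the peptide exchange step, H2-DMa was at 9.64, 9.03 and 9.72 in WT ND and at 10.08, 10.21 and 10.51 in WT HFD. Array WT ND 2 was the low one, as it was for Cd74 and H2-Aa. The log2 fold change of H2-DMa, 0.81 ± 0.26, was among the largest of the members but had a limma adjusted p of 0.0951. H2-Ob, a chain of the inhibitor H2-DO, was at 7.91, 7.88 and 7.93 on ND and at 7.99, 8.22 and 8.27 on HFD, where array WT HFD 1 stayed close to the ND arrays. H2-Ob gave a log2 fold change of 0.25 ± 0.10 (limma adjusted p = 0.17). H2-Oa ran from 7.13 to 7.20 in WT ND and from 7.04 to 7.46 in WT HFD, and these ranges overlapped. Its log2 fold change of 0.08 ± 0.10 had a 95% confidence interval of -0.13 to 0.29 (limma adjusted p = 0.844).

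The calls in WT depended on each array in a group of 3. Leaving out WT ND 2, WT ND 3, WT HFD 2 or WT HFD 3 left 0 members past the threshold, leaving out WT ND 1 left Cd74 alone, and leaving out WT HFD 1 left 3. The log2 fold changes moved less over those 6 fits, between 0.81 and 0.92 for H2-Ab1, 0.66 and 0.73 for H2-Eb1, 0.64 and 0.87 for Cd74, and 0.44 and 0.55 for Ciita.

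**Figure D1:**
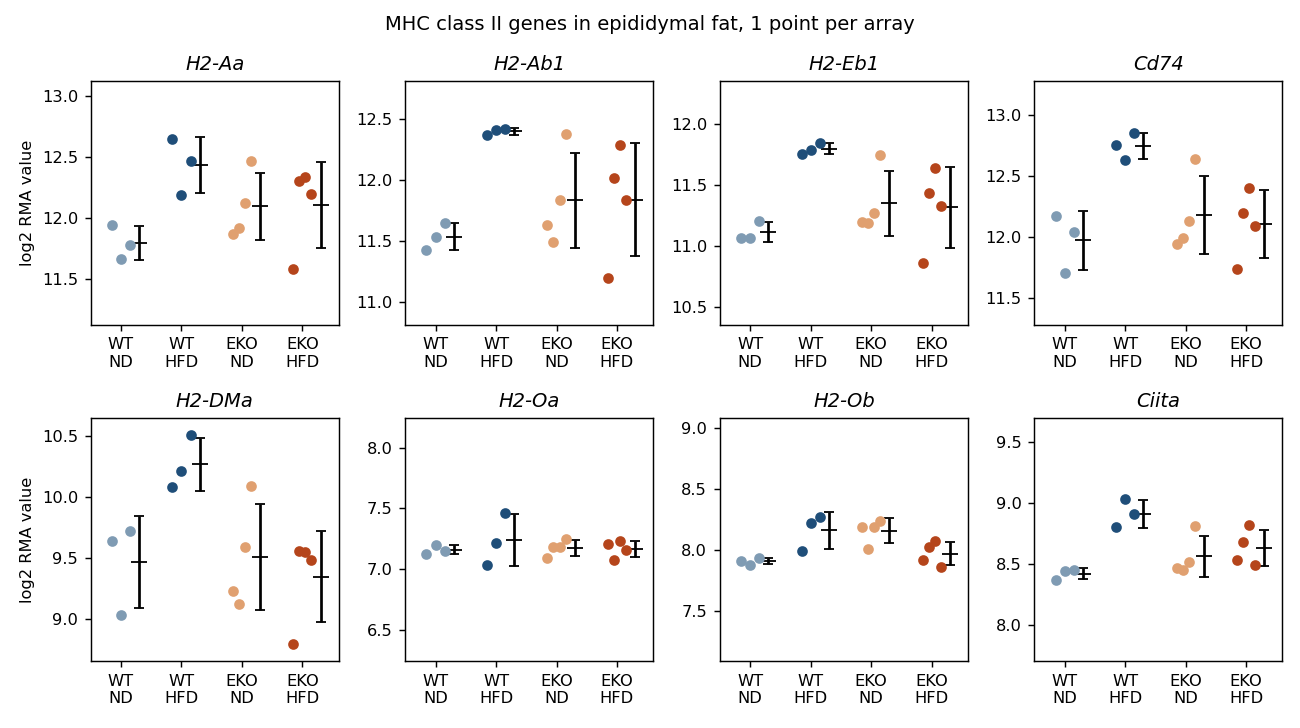
Log2 RMA value (vertical axis, of the same span in each panel) of the 8 measured class II genes in the 4 groups, with 1 point per array and the group mean ± SD as a black bar. The WT HFD arrays of H2-Ab1 sit between 12.37 and 12.42, all above the WT ND arrays, while the EKO groups overlap in all 8 panels.

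In EKO fat no member differed between the diets by this test. Of the 8 members 0 passed, as did 0% of all genes, where 883 of 19937 genes had an unadjusted limma p under 0.05, among them 1 member, H2-Ob. The median log2 fold change of the members was -0.02, with values between -0.19 (H2-Ob) and 0.07 (Ciita). H2-Ab1 log2 values were 11.63, 11.49, 11.84 and 12.38 in EKO ND and 11.20, 12.02, 12.29 and 11.84 in EKO HFD. The groups of H2-Ab1 overlapped, with array EKO ND 4 above every EKO HFD array and EKO HFD 1 below every EKO ND array. Its log2 fold change was 0.00 ± 0.21 (n = 4 and 4), with a 95% confidence interval of -0.44 to 0.44. The WT estimate of 0.87 lies outside it and has an interval of 0.36 to 1.37. That both intervals overlap does not test their difference. The direct contrast of both diet effects, given below as an interaction, had an unadjusted 95% interval of -1.54 to -0.2. It did not pass after adjustment over all genes.

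Cd74 log2 values were 11.94, 11.99, 12.13 and 12.64 in EKO ND and 11.73, 12.19, 12.40 and 12.09 in EKO HFD. Here too EKO ND 4 was the highest of its group and EKO HFD 1 the lowest of the other. The log2 fold change of Cd74 was -0.07 ± 0.16, with a 95% confidence interval of -0.42 to 0.28. H2-Eb1 changed by -0.04 ± 0.15 (interval -0.36 to 0.28) and Ciita by 0.07 ± 0.10 (interval -0.14 to 0.28), neither past the threshold. For H2-DMa the interval was wider, -0.65 to 0.32 around -0.16 ± 0.23. H2-Ob was at 8.19, 8.01, 8.19 and 8.24 in EKO ND and at 7.92, 8.02, 8.07 and 7.86 in EKO HFD, overlapping only through EKO ND 2. Its log2 fold change of -0.19 ± 0.08 had a limma adjusted p of 0.946.

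The difference between both diet effects, EKO minus WT, was tested as an interaction, in which 0 of the 8 members passed, against 0.482% of all genes. All 8 differences were below 0, with a median of -0.68 on the log2 scale where that of all genes was 0.03, and 7 had an unadjusted limma p under 0.05, as had 2162 of all 19937 genes. The interaction of Cd74 was -0.84 ± 0.25 (limma adjusted p = 0.176) and that of H2-Ob was -0.44 ± 0.13 (limma adjusted p = 0.157). For H2-Ab1 it was -0.87 ± 0.31 (limma adjusted p = 0.287) and for H2-DMa -0.97 ± 0.35 (limma adjusted p = 0.278). The members' response to the Western diet was thus not shown to differ between genotypes after adjustment over all genes. Both diet effects enter this contrast, so the interaction values are no evidence separate from the diet comparisons.

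On the normal diet no member differed between EKO and WT fat by this test. The share of all genes that passed was 0.00502%, which is 1 gene. All 8 log2 differences, EKO minus WT, were above 0, from 0.01 (H2-Oa) to 0.30 (H2-Aa and H2-Ab1), with a limma adjusted p of 1 in each. The value of H2-Aa was 0.30 ± 0.18 (n = 3 and 4) and that of Cd74 was 0.20 ± 0.18. Without array EKO ND 4 the difference was 0.18 for H2-Aa, 0.12 for H2-Ab1 and 0.05 for Cd74. H2-Ob ran from 8.01 to 8.24 in EKO ND and from 7.88 to 7.93 in WT ND, with a mean difference of 0.25 ± 0.09. It was the 1 member with an unadjusted limma p under 0.05, as had 226 of all 19937 genes.

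On the Western diet 2 members were lower in EKO than in WT fat, the invariant chain Cd74 and the exchange subunit H2-DMa. They stand beside 4.05% of all genes that were lower in EKO at the same threshold. All 8 log2 differences were below 0, with a median of -0.41, where the median of all genes was 0.03. In 4 members (Cd74, H2-Ab1, H2-DMa and H2-Eb1) every EKO HFD array was below every WT HFD array, as in 8.71% of all genes. This comparison shares its WT HFD arrays with the diet comparison in WT.

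H2-DMa was at 8.79, 9.56, 9.55 and 9.48 in EKO HFD, beside 10.08, 10.21 and 10.51 in WT HFD. Array EKO HFD 1 stood apart from the other three of its group, which lay close together and below every WT HFD array. H2-DMa was lower in EKO by a log2 difference of -0.93 ± 0.24 (n = 3 and 4, limma adjusted p = 0.0392). Cd74, at 11.73 to 12.40 in EKO HFD and 12.63 to 12.85 in WT HFD, differed by -0.64 ± 0.18 (limma adjusted p = 0.0491). H2-Ab1 differed by -0.57 ± 0.22 (limma adjusted p = 0.167), H2-Eb1 by -0.48 ± 0.16 (limma adjusted p = 0.105) and Ciita by -0.29 ± 0.11 (limma adjusted p = 0.146). The H2-DO chains were again nearest to 0, at -0.07 ± 0.09 for H2-Oa and -0.19 ± 0.09 for H2-Ob.

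Both calls depended on single arrays. Leaving out any of WT HFD 2, WT HFD 3, EKO ND 3, EKO HFD 1, EKO HFD 2 or EKO HFD 4 left 0 of them. H2-DMa alone was kept without WT ND 1, WT ND 3, WT HFD 1 or EKO ND 1, and Cd74 alone without EKO HFD 3. Over the 7 fits that left out a Western diet array, the log2 difference ranged from -0.74 to -0.52 for Cd74 and from -1.02 to -0.74 for H2-DMa. Within the 9 arrays of lower background the differences were -0.60 for Cd74 and -0.84 for H2-DMa, and neither passed.

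Averaged over both diets, 0 of the 8 members differed between EKO and WT, against 1.08% of all genes. The log2 differences ran from -0.44 ± 0.17 for H2-DMa (limma adjusted p = 0.317) to 0.03 for H2-Ob, with a median of -0.10.

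**Figure D2:**
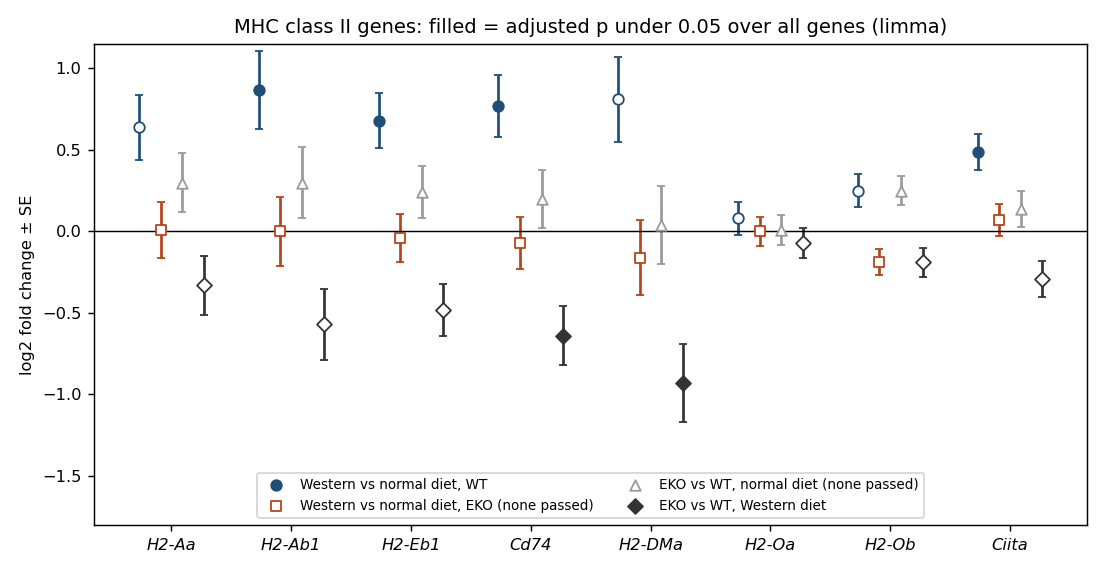
Log2 fold change ± SE (vertical axis) of the 8 class II genes (horizontal axis) in 4 comparisons, with filled symbols for an adjusted p under 0.05 over all genes. The 4 filled circles (H2-Ab1, H2-Eb1, Cd74 and Ciita) are the rises with the Western diet in WT, the 2 filled diamonds (Cd74 and H2-DMa) the lower levels in EKO on the Western diet, and all squares, for the diet in EKO, lie between -0.19 and 0.07.

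Across the 4 groups the order of mean log2 levels was alike for most members. WT HFD was highest for H2-Aa, H2-Ab1, H2-Eb1, Cd74, H2-DMa and Ciita, and WT ND was lowest for these genes except H2-DMa, where EKO HFD was lowest. Cd74, for example, had group means of 12.74 ± 0.11 in WT HFD (SD, n = 3), 12.17 ± 0.32 in EKO ND (n = 4), 12.10 ± 0.28 in EKO HFD (n = 4) and 11.97 ± 0.24 in WT ND (n = 3). The lower 3 of these means differ by less than the SD of the EKO ND arrays. For H2-Ab1 the means were 12.40 ± 0.03 in WT HFD (n = 3), 11.84 ± 0.39 in EKO ND and 11.84 ± 0.46 in EKO HFD (n = 4 each), and 11.54 ± 0.11 in WT ND (n = 3). The spread of H2-Ab1 was thus several times wider in either EKO group than in either WT group. H2-Ob departed from the pattern: its means were 8.16 ± 0.15 in WT HFD (n = 3), 8.16 ± 0.10 in EKO ND (n = 4), 7.97 ± 0.09 in EKO HFD (n = 4) and 7.91 ± 0.02 in WT ND (n = 3). H2-Oa lay between 7.16 and 7.24 in all 4 groups.

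The array that was high or low within a group tended to be so for several members at once. EKO ND 4 was the highest of the EKO ND arrays for H2-Aa, H2-Ab1, H2-Eb1, Cd74, H2-DMa and Ciita, and EKO HFD 1 was the lowest of the EKO HFD arrays for all of these except Ciita. With each value centred on its group mean, 13 of the 28 pairs of members correlated over the 14 arrays (exact permutation within groups, 20736 orders, Benjamini-Hochberg adjusted p under 0.05 over the 28 pairs, two-sided). Among the 15 pairs of those 6 genes 12 passed, with Pearson r of 0.458 to 0.983 and Spearman rho of 0.319 to 0.956, by which 11 passed. In the 13 pairs with H2-Oa or H2-Ob, r ran from -0.0765 to 0.742 and 1 passed, H2-Ob with Ciita, while by rho 4 passed, those of H2-Ob with H2-Ab1, H2-Eb1, H2-DMa and Ciita.

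H2-Ab1 and H2-Eb1, both genes for beta chains, gave the closest pair, with r = 0.983 (exact permutation, adjusted p = 0.0027) and rho = 0.956 (adjusted p = 0.00405). Cd74 and H2-DMa followed with r = 0.918 (exact permutation, adjusted p = 0.0118) and rho = 0.89 (adjusted p = 0.0133). Without the 2 arrays farthest from the median of the first gene of a pair, r was 0.897 for H2-Ab1 with H2-Eb1 (adjusted p = 0.0432) and 0.772 for Cd74 with H2-DMa (adjusted p = 0.108), and the former was the only pair of the 28 to pass. For Cd74 the arrays left out were EKO ND 4 and EKO HFD 1. Some r stayed as large without the farthest arrays although the call was lost, such as H2-Eb1 with Ciita (0.797 with all arrays and 0.785 without), while others fell, such as H2-Aa with H2-Ab1 (0.835 and 0.241), whose relation rests on those arrays. Within the 9 arrays of lower background 15 of the 28 pairs passed, where 48 orders exist and each of those pairs was at the smallest exact permutation p they can give, 0.0208.

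The genes most alike Cd74 over the 14 arrays, other than members, were Naip5 (r = 0.946), Ptpn22 (0.940), Fcer1g (0.934), Pea15a (0.933), Slc48a1 (0.921), Dhrs1 (0.917), Pm20d1 (0.917), Kmo (0.916), Naip2 (0.916) and Cd44 (0.916). They are given as a description of these arrays, which share their groups. With group means removed their r with Cd74 ran from 0.819 for Slc48a1 to 0.876 for Naip5 and Fcer1g. Among all genes H2-Eb1 ranked 2nd by r with Cd74 (0.945), H2-DMa 4th (0.939), H2-Ab1 13th (0.916), H2-Aa 30th (0.899) and Ciita 174th (0.850), whereas H2-Ob (0.611) and H2-Oa (0.351) ranked 2009th and 4476th. Since likeness was taken with group differences included, a rise where Cd74 rose is built into the choice, and the diet values are a description. With the Western diet in WT the log2 fold change of the 10 alike genes ran from 0.41 for the heme transporter Slc48a1 to 1.41 for the hyaluronan receptor Cd44. It was 0.94 for Fcer1g, the signalling chain of Fc receptors, and 1.30 for the phosphatase Ptpn22. In EKO the log2 fold changes of the 10 genes with the diet lay between -0.11 and 0.11. Naip2 and Naip5 are close copies of each other, and whether their probe sets cross-hybridise was not tested.

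The other class II rows passed in none of the 6 comparisons. H2-Ea, whose promoter is deleted in C57BL/6 mice so that no full transcript is made, was at 6.15 to 6.45 over the 14 arrays, with 60.2% of receptor genes at or above its mean. Its log2 fold change with the diet in WT was 0.05 ± 0.09. H2-Eb2, a neighbouring beta chain gene, was at 7.17 to 7.61 and gave 0.13 ± 0.09 in the same comparison.

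Genes that act on class II protein in the endosome formed the list with the most calls among the pathway lists examined. With the Western diet 5 of the 11 measured processing genes rose in WT, beside 3.19% of all genes, and 0 fell. The list median log2 fold change was 0.27. On the Western diet 4 of the 11 were lower in EKO, beside 4.05% of all genes, with a median of -0.23. Ctss, the cathepsin that cleaves the invariant chain in antigen presenting cells, was at 9.29, 9.43 and 9.55 in WT ND and at 10.90, 11.21 and 11.51 in WT HFD. The groups were far apart, and Ctss rose by 1.79 ± 0.25, or 3.45-fold (limma adjusted p = 0.0011). In EKO its arrays overlapped between diets, at 8.79 to 10.10 on ND and 9.36 to 9.89 on HFD, with a log2 fold change of 0.27 ± 0.22 (limma adjusted p = 0.946). On the Western diet Ctss was lower in EKO by a log2 difference of -1.59 ± 0.24 (limma adjusted p = 0.00164).

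Ifi30, a thiol reductase that unfolds endosomal antigens, was at 9.84, 9.92 and 9.88 in WT ND and at 10.87, 10.88 and 11.48 in WT HFD. It rose by 1.20 ± 0.18 (limma adjusted p = 0.00178), and on the Western diet it was lower in EKO by a log2 difference of -1.24 ± 0.17 (limma adjusted p = 0.00103). Ifi30 was the single gene of the pathway lists whose interaction passed, at -1.29 ± 0.24 (limma adjusted p = 0.0336), with EKO means of 9.93 ± 0.32 on ND and 9.84 ± 0.17 on HFD (SD, n = 4 each). That call was kept in 5 of the 14 fits without 1 array, those without WT HFD 1, EKO ND 1, EKO ND 2, EKO ND 4 or EKO HFD 2. The asparagine endopeptidase Lgmn rose by 1.06 ± 0.19 and the cathepsin Ctsl by 0.75 ± 0.14 with the diet in WT (limma adjusted p = 0.00516 and 0.00617). Each of these 4 genes passed in all 6 fits without 1 WT array. Averaged over diets, Ctss (-0.83 ± 0.17, limma adjusted p = 0.0299) and Ifi30 (-0.59 ± 0.12, limma adjusted p = 0.0325) were lower in EKO. At the same threshold 1.08% of all genes differed. On the normal diet 0 of the 11 processing genes differed between EKO and WT, with a list median of -0.02. The averages thus do not show a difference on both diets, and for Ifi30 the interaction passed.

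Among 17 measured regulators of class II genes, 2 rose in WT with the diet, beside 3.19% of all genes. None fell, and the list median was 0.07. Both are transcription factors of myeloid cells. Spi1, which encodes PU.1, rose by 1.13 ± 0.22 (limma adjusted p = 0.00863), from 9.35 to 9.63 in WT ND up to 10.25 to 10.78 in WT HFD, and without WT HFD 3 it did not pass. Irf8 rose by 1.25 ± 0.29 (limma adjusted p = 0.0217), but its WT HFD arrays were at 9.29, 10.54 and 10.72 and it passed in 2 of the 6 fits without 1 WT array. Array WT HFD 1 was the low one for Irf8, close to its highest WT ND value of 9.15.

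On the Western diet 4 of the 17 regulators were lower in EKO, beside 4.05% of all genes. They were Irf8 (-1.11 ± 0.27), Spi1 (-1.0 ± 0.21), the interferon gamma receptor chain Ifngr2 (-0.72 ± 0.19) and the kinase Jak1 (-0.42 ± 0.11). Their limma adjusted p were 0.0274, 0.0122, 0.0404 and 0.0434. In the 7 fits without 1 Western diet array, Spi1 passed in 5, Irf8 in 2, and Ifngr2 and Jak1 in 1 each. Subunits of the factors that bind the X and Y boxes, RFX and NF-Y, did not pass with the diet in WT, with log2 fold changes of -0.06 for Rfx5, 0.00 for Rfxap, 0.18 for Rfxank, 0.25 for Nfya, 0.07 for Nfyb and 0.01 for Nfyc. Ifng, the interferon itself, was at 7.43 to 7.96 over the 14 arrays, with a log2 fold change of 0.01 ± 0.12 in WT.

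The measured class I presentation and T cell contact genes showed fewer calls. The class I heavy chain genes H2-K1, H2-D1 and H2-T23 had no row carrying their symbol alone. They were not measured, so the class I counts do not cover these heavy chains. Of 13 measured class I genes Tapbp, which loads peptides onto class I molecules, rose in WT with the diet (0.43 ± 0.10, limma adjusted p = 0.0267). Of all genes 3.19% rose in that comparison. Tapbp passed in 2 of the 6 fits without 1 WT array. The class I list had a median of 0.15, and 0 of its genes were lower in EKO on the Western diet, beside 4.05% of all genes. Of 12 genes for CD4 T cell contact and costimulation 0 passed in WT, where 3 had an unadjusted limma p under 0.05, as had 3379 of all 19937 genes, and the median was 0.16. The costimulatory ligand Cd86 was at 7.36 to 7.58 in WT ND and 7.77 to 8.43 in WT HFD, with a log2 fold change of 0.61 ± 0.17 (limma adjusted p = 0.0595). Cd4, the coreceptor that binds class II molecules, gave 0.26 ± 0.10 (limma adjusted p = 0.155). In EKO 0 genes of these 4 lists passed with the diet.

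**Figure D3:**
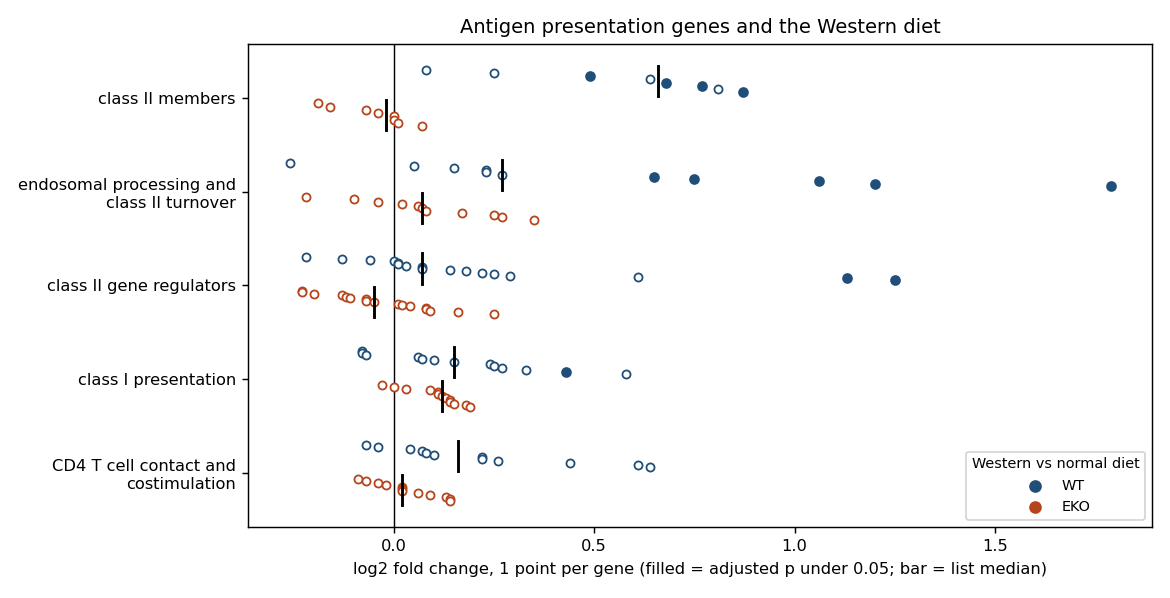
Log2 fold change with the Western diet (horizontal axis) of each gene in the class II members and 4 pathway lists (rows), in blue for WT and orange for EKO, filled where the adjusted p is under 0.05, with a black bar at each list's median. The member medians are 0.66 in WT and -0.02 in EKO, and no EKO point is filled.

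Macrophage markers were higher in the group in which the members were highest, whereas B cell markers held no call. The mean log2 level of 10 macrophage markers was 9.79 to 10.03 in WT ND, 10.44 to 10.90 in WT HFD, 9.50 to 10.35 in EKO ND and 9.77 to 10.31 in EKO HFD, so WT HFD stood above all other arrays. Of those markers 4 rose in WT with the diet, beside 3.19% of all genes, and Mertk fell by 0.77 ± 0.16. The rises were 2.0 ± 0.30 for Mpeg1, 1.57 ± 0.26 for Cd68, 1.35 ± 0.26 for Adgre1 and 0.70 ± 0.17 for Fcgr1. On the Western diet 5 of the 10 were lower in EKO, beside 4.05% of all genes, with a list median of -0.64. None of the macrophage markers was at array background.

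The mean of 10 dendritic cell markers was 8.29 to 8.41 in WT ND, 8.45 to 8.53 in WT HFD, 8.18 to 8.49 in EKO ND and 8.36 to 8.53 in EKO HFD, with none at background. Of these, Clec9a (0.74 ± 0.12, limma adjusted p = 0.00211) and Flt3 (0.41 ± 0.10, limma adjusted p = 0.026) rose in WT with the diet, both markers of conventional dendritic cells, and both were lower in EKO on the Western diet. These 2 rises among 10 markers stand beside 3.19% of all genes. Clec9a ran from 7.05 to 7.92 over the arrays, near H2-Eb2 (mean 7.37), which 19.1% of receptor genes reached. That level limits what can be read from Clec9a. The dendritic cell list as a whole had a median log2 fold change of 0.07 in WT, with 6 of 10 markers above 0. Zbtb46 (-0.05), Batf3 (-0.09), Itgae (-0.03) and Siglech (-0.27) were below 0. Of 10 measured B cell markers 0 passed, with list means of 7.36 to 7.41 in WT ND, 7.36 to 7.55 in WT HFD, 7.41 to 7.61 in EKO ND and 7.39 to 7.42 in EKO HFD, and Cd79a and Fcer2a were at array background. The mean of 8 T cell markers was 7.33 to 7.39 in WT ND, 7.47 to 7.63 in WT HFD, 7.35 to 7.49 in EKO ND and 7.38 to 7.49 in EKO HFD, with Cd3d and Trat1 at background and Cd3e rising in WT (0.40 ± 0.11, limma adjusted p = 0.0418). Cd3e was the 1 T cell marker of 8 that passed in this comparison, beside 3.19% of all genes that rose. Adipocyte markers had mean levels of 13.05 in WT ND, 12.94 in WT HFD, 13.10 in EKO ND and 13.05 in EKO HFD. Their median log2 fold change with the diet in WT was -0.12. Of these 9 markers 2 fell, as did 458 of all 19937 genes. The part of these cell types in the class II differences was not tested.

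Within groups, over the 14 arrays, Cd74 was compared with 5 marker lists after the data had been seen, and no relation passed after adjustment. For macrophage markers r was 0.643 (exact permutation p = 0.0431, adjusted over the 5 lists 0.215) and rho was 0.543 (exact permutation p = 0.0842, adjusted 0.332). Without arrays EKO ND 4 and EKO HFD 1 that r was 0.183, and in the 9 arrays of lower background it was 0.917 (exact permutation p = 0.0417, adjusted 0.104). The r was 0.496 for dendritic cell markers, 0.328 for B cell markers, 0.418 for T cell markers and 0.440 for adipocyte markers, with rho of 0.363, 0.160, 0.446 and 0.275 and adjusted exact permutation p between 0.242 and 0.595. For adipocyte markers r changed sign without those arrays, to -0.657.

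**Figure D4:**
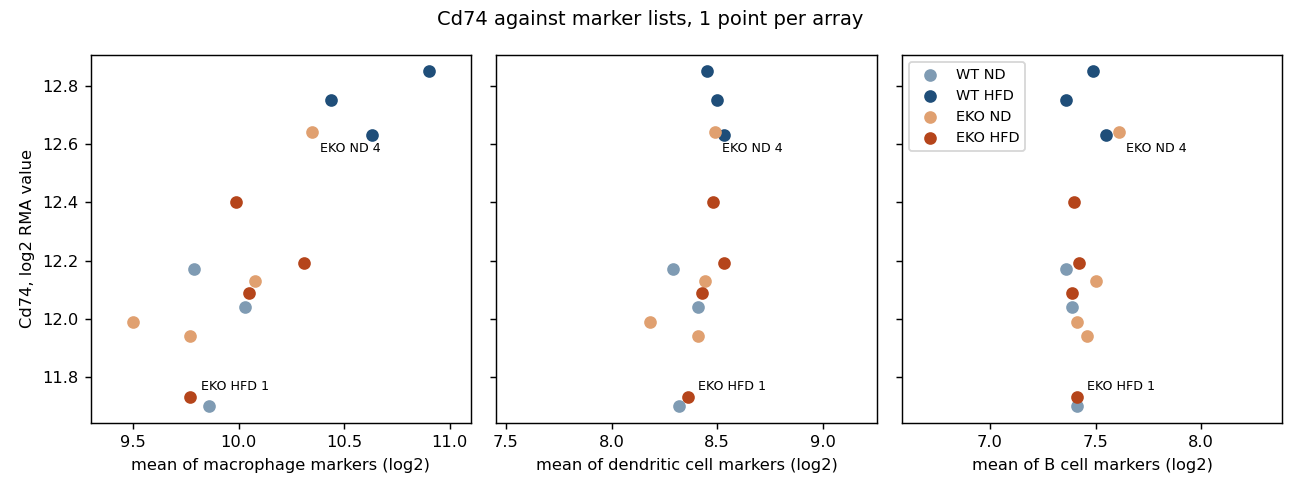
Cd74 log2 value (vertical axis) against the mean log2 level of macrophage, dendritic cell and B cell markers (horizontal axes of the same span), 1 point per array, coloured by group. The 3 WT HFD arrays lie at the top right of the macrophage panel, and the labelled arrays EKO ND 4 and EKO HFD 1 are the ends of the EKO range of Cd74.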

How the data were processed

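The authors deposited 1 table of log2 values for 34760 probe sets on 14 arrays, which the submitters' processing notes credit to RMA. How RMA was set and whether 1 run took in all arrays is not stated in the sources used here. RMA usually brings the probe values of all arrays to 1 distribution, which would hide a shift common to most genes; the deposited array medians ran from 7.92 to 8.10. The values ran from 4.21 to 14.55 and were read as log2 on that basis. The platform annotation gave 1 symbol to 21640 rows, several to 1321 and none to 11799. Of the first kind 21553 matched a RefSeq gene by Entrez ID. The probe set with the highest mean was kept for the 954 genes with several, leaving 19937 genes.

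Contrasts came from 1 model with a mean per group over all 14 arrays (limma 3.58.1, R 4.3.3, lmFit and eBayes, 10 residual degrees of freedom, Benjamini-Hochberg over all genes), tested first on simulated data. The number of arrays limits the precision. The p-values weigh each difference against the spread between these samples, pooled over the 4 groups and moderated across genes. The labels do not say whether an array held 1 animal, so that spread may not be one between single animals.

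The members and lists were chosen with earlier results of these data known. Named genes are the members, Apoe, up to 4 genes per pathway list that passed in any comparison (or the 2 with the smallest p in the WT diet comparison), and the 10 genes most alike Cd74. Other regulators and markers are named beside their list's count. Correlations used every order within groups instead of the 100000 resamples planned, over 28 pairs because 8 members were measured. The correlations with marker lists were chosen after seeing the data. Alternatives changed the scaling, the prior, array weights, filters on dim genes, the probe set rule, the samples fitted, array background, the replicate block and single arrays. Figures were drawn with matplotlib 3.10.9 in Python 3.11.15.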

Additional observations from a re-analysis of the deposited data

Results flagged for a closer look

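In the 4 EKO ND arrays H2-Eb1 had 1 high array: replicate 4 was at 11.75 and the next at 11.27, a gap of 0.858 of the group's range, above Dixon's 95% critical value of 0.829. In the 4 EKO HFD arrays H2-DMa had 1 low array, replicate 1 at 8.79 with the next at 9.48, a gap of 0.898 of the range. In the same array Pm20d1, one of the genes most alike Cd74, was at 7.59 with the next at 8.25, a gap of 0.852 of the range. Of 62 groups of 4 arrays checked, 3 were past that value, and chance alone gives about 1 in 20. The diet effect on Ifi30 differed between genotypes, with an interaction of -1.29 on the log2 scale (limma adjusted p = 0.0336).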

How the results depend on the processing

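Of 26 alternatives per comparison, none turned the direction of a called value. With the Western diet in WT 4 members passed; 7 did with array weights, under which 5224 genes passed in place of 1094, and 0 to 5 without 1 array. For EKO against WT on the Western diet 2 passed; 6 did with array weights (6789 genes in place of 1134), 0 in the arrays of lower background, and 0 to 2 without 1 array. For the interaction 0 passed; 6 did with array weights (2338 genes in place of 96), 1 (H2-Ob) in the arrays of lower background, and 0 to 1 without 1 array, the 1 being H2-Ob without WT HFD 1. Averaged over diets, array weights gave 1 (H2-DMa, 2367 genes in place of 216). Of 13 correlated pairs 1 was left without the 2 farthest arrays. The cause of these shifts was not tested. The replicate block gave 5 members for the diet in WT (H2-DMa added), 3 for EKO against WT on the Western diet (H2-Eb1 added) and 0 elsewhere. Whether replicate numbers pair the samples was not settled. Between the diets of each genotype, 3 of 14 arrays correlated best with their own number, which was not counted between genotypes. Deviations of same-numbered arrays correlated at -0.593 to 0.644. Between WT HFD and EKO HFD these values were 0.644, 0.485 and -0.114 for replicates 1, 2 and 3. With the diet in WT other settings left 3 (median centring) to 6 members (lower background), while 0 passed in EKO under every alternative. With 3 and 4 arrays a group, and H2-Oa near array background, small changes could not be detected.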

Other observations

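Markers of the mesothelium, the cell layer that covers the fat pad, moved against the class II genes in WT fat. With the Western diet 5 of 7 fell and 0 rose, where 458 of all 19937 genes fell, and the median log2 fold change was -1.16. The list mean went from 10.24 to 10.67 in WT ND down to 9.31 to 9.49 in WT HFD. In EKO it was 9.60 to 10.19 on ND and 9.81 to 10.12 on HFD, and 0 of 7 passed with the diet. Of 5 neutrophil markers 1 rose in WT, beside 3.19% of all genes, and 0 passed in EKO, with Ly6g and Cxcr2 at array background. Mast cell markers (7) and endothelial markers (8) held 0 calls with the diet in either genotype. In WT, 2 of the mast cell and 0 of the endothelial markers had an unadjusted limma p under 0.05, and in EKO 0 of either did. Epididymis markers, which would report tissue of the neighbouring organ in the dissected pad, had list means of 6.60 to 6.97 over all arrays, with Lcn8 and Adam7 at array background.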
